A study of Mus musculus with 23 samples.

Results

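Connexin genes encode the subunits of gap junctions. The 7 genes described here, Gjb1, Gjc3, Gja1, Gjc1, Gjb2, Gja4 and Gja5, were chosen by their symbols. They were matched by Ensembl identifier to the GRCm38 annotation, and all 7 were found among the 43068 genes listed for the crush libraries and the 22880 genes listed for the libraries of the inducible mutants. RNA of whole mouse sciatic nerves (SNs) was sequenced in 23 libraries of 7 groups, on a C57bl6 background (C57BL/6J in the methods). In the first experiment, wild-type male mice aged 2 months underwent nerve crush, and the crushed nerves (n = 4) and contralateral nerves of operated mice (n = 4) were collected 3 days post crush (3 dpc), next to nerves of uncrushed surgery controls (n = 3). By the methods, both nerves of an operated mouse were taken, so crushed and contralateral libraries can share mice, but which of them do is not given in the sources used here. In the second experiment, P0-CreERT2 -/+ mice carrying Dicer1 flox/flox (Dicer iKO, n = 3) or Dgcr8 flox/flox (Dgcr8 iKO, n = 3) were compared with P0-CreERT2 -/- mice of the same floxed genotype (Dicer control and Dgcr8 control, n = 3 each). All mice of the second experiment, controls included, received tamoxifen on 5 days, starting at an age between 8 and 10 weeks, and were analysed 3 months later. The comparisons ask how the nerve transcriptome responds to crush injury and to the loss of microRNA processing in adult Schwann cells (SCs), since Dicer and Dgcr8 are both needed to make most microRNAs.

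Some features of the design limit these groups as models. The transgene of the iKO mice holds untranslated leader sequence of human GJB1, and its Cre acts in myelinating SCs, whereas the RNA comes from the whole nerve. The mutants were restricted to mice with visible nerve pathology, because penetrance was incomplete. Whether transgene reads add to the counts of mouse Gjb1 was not tested. In bulk tissue, fewer cells of a type and less RNA per cell cannot be told apart. The labels name different library kits for the experiments, and levels were not compared across them.

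Each connexin spans the membrane, and a ring of connexins forms a hemichannel that docks with a hemichannel of the neighbouring membrane to make a channel for ions and small metabolites. In peripheral nerve, connexin 32 (Gjb1) forms reflexive channels between the layers of the same myelinating SC, and its loss causes X-linked Charcot-Marie-Tooth neuropathy. Connexin 29 (Gjc3) lies in the innermost SC membrane that faces the axon. The other genes encode connexin 43 (Gja1), connexin 45 (Gjc1), connexin 26 (Gjb2), connexin 37 (Gja4) and connexin 40 (Gja5), of which connexins 37 and 40 are best known from arterial endothelium.

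On GRCm38, Gjb1 (ENSMUSG00000047797) lies at chrX:101376378-101385629 on the plus strand and Gjc3 (ENSMUSG00000056966) at chr5:137953461-137963098 on the minus strand. The others are Gja1 (ENSMUSG00000050953) at chr10:56377330-56402513 (plus), Gjc1 (ENSMUSG00000034520) at chr11:102799579-102819700 (minus), Gjb2 (ENSMUSG00000046352) at chr14:57098600-57104702 (minus), Gja4 (ENSMUSG00000050234) at chr4:127311421-127314039 (minus) and Gja5 (ENSMUSG00000057123) at chr3:96904693-97077416 (plus). All 7 are protein-coding. Gja5 alone overlaps other genes, all on the opposite strand, among them Gpr89, 9230114J08Rik and 4930573H18Rik.

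The 250 bases upstream of the annotated start are shown for Gjb1, because its reads were assigned to the transcript from this start, for Gjc3, whose change had the opposite sign after crush and in Dgcr8 iKO, and for Gja5, the only other gene with both motifs searched. They were read from RefSeq (GRCm38.p6), run 5′ to 3′ on the strand of the gene, and end at the base before the start. Capitals mark matches, on either strand, to ACAAAG, a short form of the site bound by Sox factors such as Sox10, and to GTGGGCG, a short form of the site bound by Egr factors such as Egr2. The motifs do not overlap each other.
Gjb1, chrX:101383482-101383731, plus strand: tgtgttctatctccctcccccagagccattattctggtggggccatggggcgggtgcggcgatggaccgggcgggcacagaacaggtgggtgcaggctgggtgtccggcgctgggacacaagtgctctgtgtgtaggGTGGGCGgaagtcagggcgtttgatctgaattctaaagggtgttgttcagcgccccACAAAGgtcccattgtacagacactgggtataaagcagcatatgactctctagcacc
Gjc3, chr5:137963099-137963348, minus strand: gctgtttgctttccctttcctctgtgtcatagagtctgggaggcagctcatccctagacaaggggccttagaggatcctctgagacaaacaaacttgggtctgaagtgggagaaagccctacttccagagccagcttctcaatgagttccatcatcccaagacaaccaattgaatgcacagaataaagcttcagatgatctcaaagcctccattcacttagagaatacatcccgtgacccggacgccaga
Gja5, chr3:97032152-97032401, plus strand: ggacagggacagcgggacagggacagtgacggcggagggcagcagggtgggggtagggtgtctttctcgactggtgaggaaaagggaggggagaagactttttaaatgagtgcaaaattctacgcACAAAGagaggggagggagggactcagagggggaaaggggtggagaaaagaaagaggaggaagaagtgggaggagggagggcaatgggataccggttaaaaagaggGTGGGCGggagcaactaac

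In the Gjb1 window, GTGGGCG began 113 bases and ACAAAG 57 bases before the start. In the Gja5 window, ACAAAG began 125 bases and GTGGGCG 19 bases before it. The Gjc3 window held neither. Among 32851 RefSeq promoter windows of the same length, 16.5% held ACAAAG, 7.02% held GTGGGCG and 0.758% held both. RefSeq windows were present for 6 of the 7 genes, with Gjc1 missing. Those of Gja1, Gja4 and Gjb2 held neither motif, and among the 3 other Gjb1 starts a single one, at 101376376, held ACAAAG. A match is a stretch of letters and not evidence of binding, and the letters were chosen with earlier results of these data known.

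Because the mutants lack microRNA processing, the 3′ untranslated regions were searched for matches to the seed (bases 2 to 8, in capitals) of 2 microRNAs. These were let-7f, which is abundant in adult nerve, and miR-206, which shares its seed with miR-1, a known repressor of connexin 43. Mature microRNAs were not measured in these libraries, so whether miR-206 or miR-1 is present in these nerves was not tested. The mature sequences are those of RefSeq (GRCm38.p6).
let-7f-5p: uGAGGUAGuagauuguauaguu
miR-206-3p: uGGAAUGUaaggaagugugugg
The letters searched were CTACCTC for let-7f and ACATTCC for miR-206, in the longest annotated 3′ untranslated region of each gene (GENCODE M21). For Gja1 this was the region of transcript Gja1-206, whereas the Gja1 reads were assigned to Gja1-201. Gjc3 held 1 match for let-7f, and Gja1 and Gjb2 held 2 matches each for miR-206. They are shown with their flanks, with the match in capitals.
Gjc3, let-7f: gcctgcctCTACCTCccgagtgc
Gja1, miR-206, first: gctaaaaaACATTCCagtgttta
Gja1, miR-206, second: tttgtttgACATTCCatgttaaa
Gjb2, miR-206, first: caagacaaACATTCCcatctaaa
Gjb2, miR-206, second: agtattatACATTCCtcctagtc
Gjb1, Gjc1, Gja4 and Gja5 held neither match. Of 21000 protein-coding genes with such a region, 9.03% held the let-7f match and 10.1% the miR-206 match. The regions differ in length, from 406 bases in Gjc1 to 2991 bases in Gjc3, against a median of 961 bases over all genes.

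The libraries held between 5594838 and 12805921 expected counts (reads that RSEM assigned to transcripts, which were summed per gene). At these totals, 3 counts correspond to between 0.234 and 0.536 CPM (counts scaled to a common library total), and this floor covers counting error only. In the crush libraries, 1 ribosomal transcript took 61.4 to 71.8% of the deposited TPM (the RSEM level per transcript length), so TPM is used below only to set connexins against each other within a library. CPM was scaled by TMM within each experiment. Gene-level counts of the targeted genes did not fall in the mutants past the threshold. Dicer1 ranged from 81.0 to 82.8 CPM in Dicer iKO and from 88.0 to 91.0 CPM in Dicer control (log2 fold change −0.11, adjusted p = 0.36, edgeR's quasi-likelihood test), and Dgcr8 from 39.3 to 53.7 CPM in Dgcr8 iKO and from 34.8 to 41.9 CPM in Dgcr8 control (0.22, adjusted p = 0.23). These counts cover whole transcripts, including exons that the recombination leaves in place and RNA of cells without Cre, so loss of the floxed exons could not be read from them. By PCR, the paper reports lower Dicer mRNA in Dicer iKO, lower Dgcr8 mRNA in Dgcr8 iKO and lower let-7f in both, at the same time after tamoxifen. The 4 myelinating SC markers (Mbp, Pmp22, Prx and Mag) were present in all groups. Their summed level was 20178 to 29479 CPM in uncrushed and contralateral nerves, 812 to 1234 CPM in crushed nerves, 21359 to 35054 CPM in the controls of the mutants and 9262 to 20112 CPM in the mutants.

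Per length, Gjb1 and Gjc3 were the main connexin transcripts of the nerve. Together they made up between 77.8 and 94.0% of the summed TPM of the 7 genes in each of the 23 libraries. In uncrushed nerves Gjc3 took 60.2 ± 1.2% (mean ± SD, n = 3) and Gjb1 30.3 ± 1.1%, and in contralateral nerves Gjc3 took 62.2 ± 1.4% (n = 4) and Gjb1 28.9 ± 2.2%. In crushed nerves the order was turned, with 65.9 ± 5.6% for Gjb1 and 15.1 ± 1.8% for Gjc3 (n = 4). Gjc1 and Gja1 came next in every group, at 4.26 ± 0.67% and 3.18 ± 0.20% in uncrushed nerves and at 8.29 ± 1.2% and 8.48 ± 2.6% in crushed nerves. The share of Gjc1 was above that of Gja1 in 3 of 3 uncrushed and 4 of 4 contralateral nerves, and in 2 of 4 crushed nerves, where the ranges overlapped. Gja4, Gja5 and Gjb2 each stayed at or below 1.40% in each crush-experiment library, and their order relative to each other changed from library to library.

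In the iKO experiment, Gjb1 was the first connexin in all 6 control libraries and Gjc3 in all 6 mutant libraries. Gjb1 took 51.4 ± 5.0% in Dicer control and 40.3 ± 1.7% in Dicer iKO, while Gjc3 took 35.1 ± 1.4% and 47.2 ± 1.3%. In Dgcr8 control and Dgcr8 iKO, Gjb1 took 56.7 ± 1.6% and 31.5 ± 4.2%, while Gjc3 took 36.1 ± 1.3% and 57.6 ± 4.3%. Gja1 held 8.43 ± 4.6% in Dicer control and between 3.22 and 5.42% on average in the other 3 groups, and Gjc1 between 2.63 and 5.0% on average. These shares describe the libraries and were not tested.

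**Figure D1:**
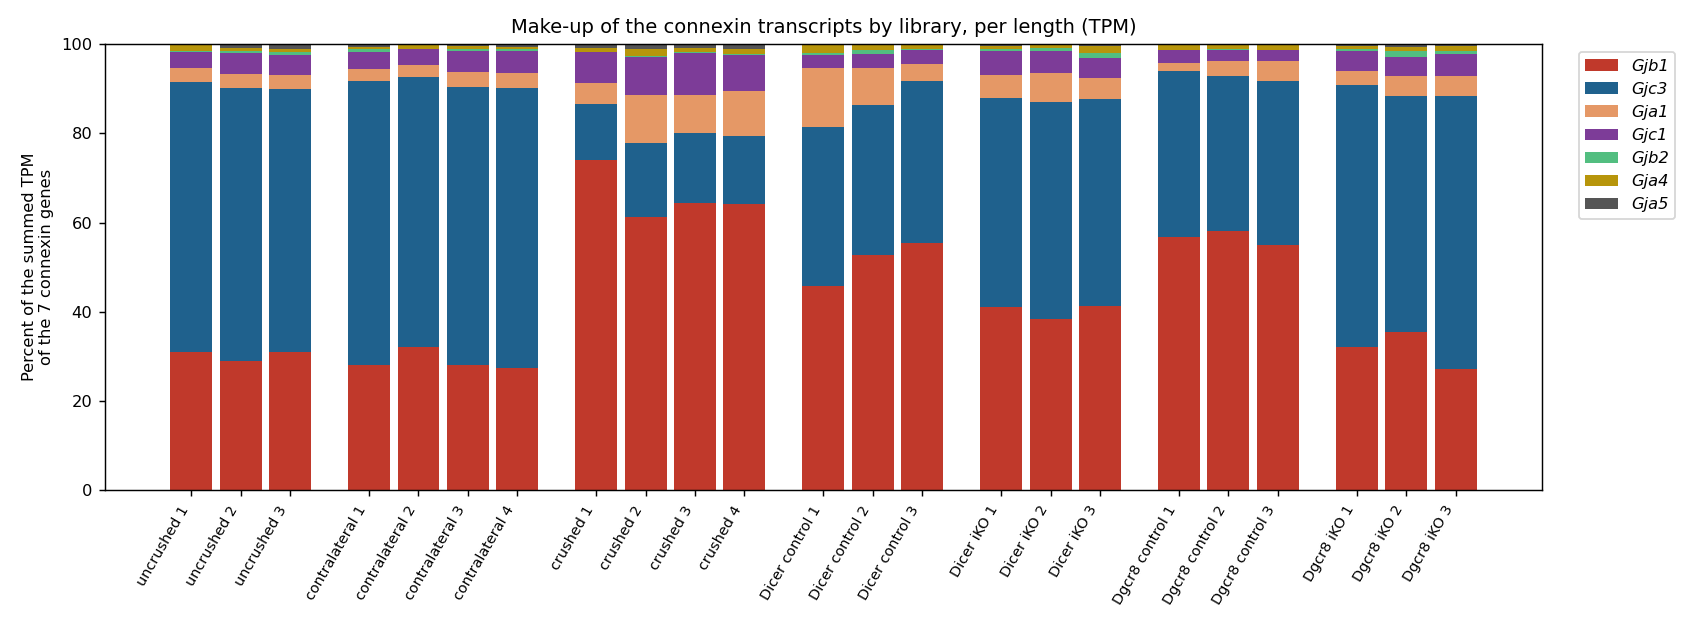
Stacked bars give, for each of the 23 libraries (x axis), the percent of the summed TPM of the 7 connexin genes taken by each gene (y axis, percent). Gjb1 takes at least 61.1% in each crushed nerve against at most 32.2% in each uncrushed or contralateral nerve, and a smaller share in each mutant than in each control nerve of the same floxed gene.

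The ratio of Gjb1 to Gjc3 in TPM put the order of the leading pair into 1 value per library. In uncrushed nerves it ranged from 0.475 to 0.524 (mean 0.503) and in contralateral nerves from 0.437 to 0.533 (mean 0.465). In crushed nerves it ranged from 3.67 to 5.89 (mean 4.46), so no crushed nerve came near the others. In the iKO experiment the ratio was 1.29 to 1.58 in Dicer control and 0.788 to 0.896 in Dicer iKO. It was 1.5 to 1.68 in Dgcr8 control and 0.443 to 0.670 in Dgcr8 iKO. All mutant nerves were below 1 and all their controls above it. Uncrushed and contralateral nerves, in contrast, were below 1, so which gene led in control nerves differed between the experiments. Why it differed was not tested.

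**Figure D2:**
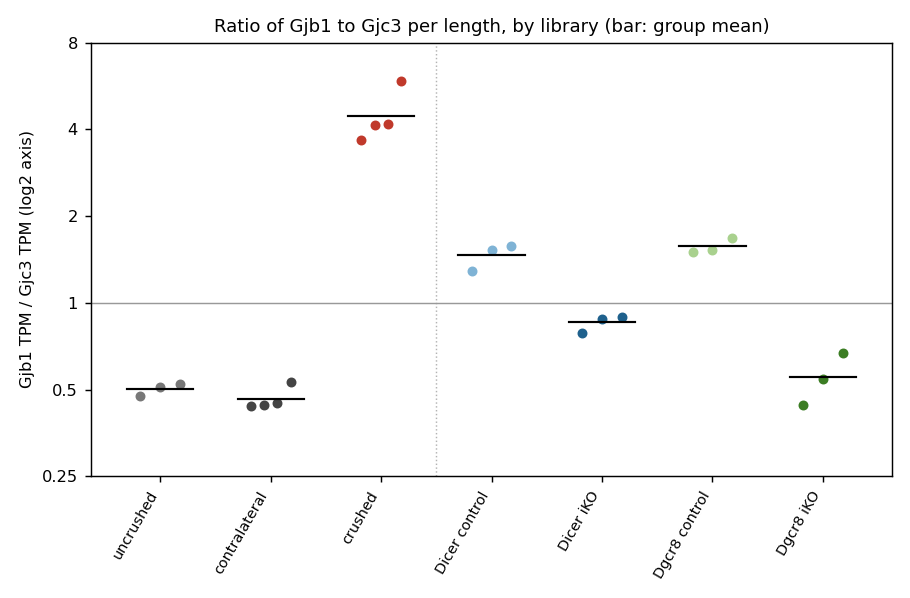
Points are libraries, bars are group means, and the y axis is the ratio of Gjb1 TPM to Gjc3 TPM on a log2 axis, with the crush and iKO experiments on either side of the dotted line. Crushed nerves lie between 3.67 and 5.89, above all other nerves of their experiment, and mutant nerves lie below 1, under all control nerves of theirs.

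Of the 7 connexins, 6 passed the filter on low counts in the comparison of crushed with contralateral nerves, and all 6 of these changed (adjusted p of at most 0.05, edgeR's quasi-likelihood test, p-values adjusted by Benjamini-Hochberg over all genes tested). Gjb1, Gja1, Gjc1, Gja5 and Gja4 rose and Gjc3 fell. Changes were common after crush: of 16667 genes tested, 66.4% changed, with 33.5% higher and 32.9% lower. Against uncrushed nerves the same 6 genes were tested, and again 5 rose and 1 fell, where 33.8% of 17433 genes rose and 33.4% fell (67.2% in either direction). The crushed libraries are the same in both comparisons. In both, Gja4 reached the filter through the crushed nerves, so it could be tested only because it was high there. Gja5 also needed crushed nerves to pass, because contralateral 2 and uncrushed 1 lay just under the filter for their library size.

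Gjb1 was at 206, 124, 138 and 119 CPM in the crushed nerves, at 39.9, 53.3, 43.3 and 37.7 CPM in contralateral nerves and at 40.4, 39.9 and 38.5 CPM in uncrushed nerves. Each crushed nerve was above each other nerve, and the first crushed nerve stood highest. Gjb1 rose 3.06-fold against contralateral nerves (log2 fold change 1.61, SE 0.17, adjusted p = 7.5e-07, edgeR) and 3.41-fold against uncrushed nerves (1.77, SE 0.18, adjusted p = 3.3e-06).

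Gjc3 moved the other way. It was at 79.8, 80.3, 80.4 and 70.0 CPM in crushed nerves, at 218, 244, 230 and 205 CPM in contralateral nerves and at 197, 206 and 175 CPM in uncrushed nerves. Crushed nerves were all lower than the rest, with little spread among them. Gjc3 fell 3.18-fold against contralateral nerves (log2 fold change −1.67, SE 0.08, adjusted p = 1.8e-10, edgeR) and 2.70-fold against uncrushed nerves (−1.43, SE 0.09, adjusted p = 5.2e-08).

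Beside these opposite changes, the markers of the cell type that carries both connexins fell in 4 of 4 cases against contralateral nerves, by a median of 4.84 on the log2 scale (from −6.03 to −3.66). Against uncrushed nerves 4 of 4 fell (median −4.63). The fall of Gjc3 was thus smaller than this median, and Gjb1 had the opposite sign to it. Repair SC markers (Ngfr, Jun, Shh and Gdnf were tested, Olig1 was too low) rose in 4 of 4 cases, with a median of 5.52. Their part in the connexin changes was not tested.

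Transcription factors known to bind the Gjb1 promoter region and their cofactors fell while Gjb1 rose. Egr2, a master regulator of myelination, was at 16.2 to 20.1 CPM in crushed and at 77.5 to 127 CPM in contralateral nerves (log2 fold change −2.69, adjusted p = 5.1e-10, edgeR). Sox10, the lineage factor of SCs, fell by 1.29 on the log2 scale (adjusted p = 2.8e-07), from 236 to 306 CPM to 98.2 to 146 CPM. The Egr cofactors Nab1 and Nab2 fell by 0.98 and 1.04, so that 4 of 4 genes on this list were lower, as they were against uncrushed nerves.

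Gja1, the connexin of many fibroblasts and smooth muscle cells, had the highest fold of the 6 tested. It was at 27.5, 44.1, 36.8 and 37.2 CPM in crushed nerves, at 7.99, 9.26, 10.8 and 9.65 CPM in contralateral nerves and at 8.72, 8.12 and 8.24 CPM in uncrushed nerves. All crushed nerves were higher than all others. Against contralateral nerves the log2 fold change was 1.81 (SE 0.14, adjusted p = 3.1e-08, edgeR), and against uncrushed nerves it was 2.0 (SE 0.16, adjusted p = 3.7e-07). Fibroblast markers (Pdgfra, Dcn, Lum, Col1a1 and Col3a1) were summed to 3039 to 3694 CPM in crushed and 3622 to 4848 CPM in contralateral nerves, and 0 of 5 rose while 3 fell. Macrophage markers rose in 6 of 6 cases (median 3.01), from 62.1 to 122 CPM to 437 to 798 CPM in sum. Mural markers (Acta2, Myh11, Tagln, Rgs5, Pdgfrb, Des and Kcnj8) summed to 241 to 277 CPM in crushed and 290 to 332 CPM in contralateral nerves, with 3 of 7 higher and 3 lower. Of 3 perineurial markers 2 fell (Itgb4 and Slc2a1), and the list summed to 113 to 132 CPM in crushed and 344 to 453 CPM in contralateral nerves. Adipocyte and skeletal muscle markers summed to at most 24.6 and 16.8 CPM in any of the 23 libraries. The part of these cells in the rise of Gja1 was not tested.

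Gjc1, found in vascular and conducting tissue, was at 24.4, 21.3, 26.8 and 20.3 CPM in crushed nerves, at 7.35, 8.17, 9.40 and 7.98 CPM in contralateral nerves and at 6.24, 8.82 and 6.87 CPM in uncrushed nerves. It rose 2.56-fold against contralateral (log2 fold change 1.36, SE 0.12, adjusted p = 1.1e-07, edgeR) and 2.93-fold against uncrushed nerves (1.55, SE 0.15, adjusted p = 2.4e-06). The groups did not overlap.

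The endothelial connexins Gja5 and Gja4 rose from low levels. Gja5 was at 5.60, 4.98, 4.09 and 4.52 CPM in crushed nerves, at 1.93, 0.933, 1.96 and 2.27 CPM in contralateral nerves and at 0.940, 2.59 and 3.36 CPM in uncrushed nerves. It rose by 1.32 on the log2 scale against contralateral nerves (SE 0.24, adjusted p = 0.00022, edgeR) and by 1.04 against uncrushed nerves (SE 0.34, adjusted p = 0.017). Gja4 was at 2.71, 3.02, 2.30 and 2.01 CPM in crushed nerves, at 0.827, 1.32, 1.08 and 0.788 CPM in contralateral nerves and at 1.79, 0.941 and 0.763 CPM in uncrushed nerves, with log2 fold changes of 1.16 (SE 0.26, adjusted p = 0.0013) and 0.90 (SE 0.33, adjusted p = 0.028). For both genes, no crushed nerve fell into the range of the other groups, although the uncrushed nerves spread from 0.940 to 3.36 CPM for Gja5 and from 0.763 to 1.79 CPM for Gja4, on 5 to 22 reads. Gja4 had 10 or more reads in all 4 crushed nerves but in 2 of 4 contralateral and 1 of 3 uncrushed nerves, so it passed the filter through the crushed group. The call of Gja4 against uncrushed nerves was lost when crushed 1, crushed 2, uncrushed 2 or uncrushed 3 was left out (adjusted p from 0.063 to 0.091) and with DESeq2 (adjusted p = 0.056). General endothelial markers (Pecam1, Cdh5, Kdr, Tek, Flt1 and Cldn5) summed to 198 to 247 CPM in crushed and 147 to 172 CPM in contralateral nerves, with 3 of 6 higher and 2 lower. Arterial markers (Efnb2, Hey1, Bmx and Sema3g) summed to 99.3 to 107 CPM and 94.2 to 130 CPM, with 1 of 4 higher and 1 lower. Their part in the changes of Gja5 and Gja4 was not tested.

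Gjb2 did not reach the count filter in the crush experiment. It had 1 to 8 reads in crushed, 3 to 16 in contralateral and 5 to 9 in uncrushed nerves (0.40 ± 0.30, 0.794 ± 0.51 and 0.914 ± 0.47 CPM), and the groups overlapped. In edgeR's test without the filter, its log2 fold change was −0.91 against contralateral nerves (SE 0.54, adjusted p = 0.23) and −0.98 against uncrushed nerves (SE 0.59, adjusted p = 0.20).

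Contralateral and uncrushed nerves were also compared with each other, as the controls of the crush. None of the 6 connexins tested passed the threshold, where 0% of 17722 genes did with edgeR, 3165 genes had an unadjusted p under 0.05 and DESeq2 called 250. The log2 fold changes ran from −0.39 (Gja5, SE 0.44) and −0.35 (Gja4, SE 0.40) to 0.14 (Gjc3, SE 0.09). Gjb1 differed by 0.06 (SE 0.11), Gja1 by 0.09 (SE 0.14) and Gjc1 by 0.10 (SE 0.16), and the groups overlapped in each gene.

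**Figure D3:**
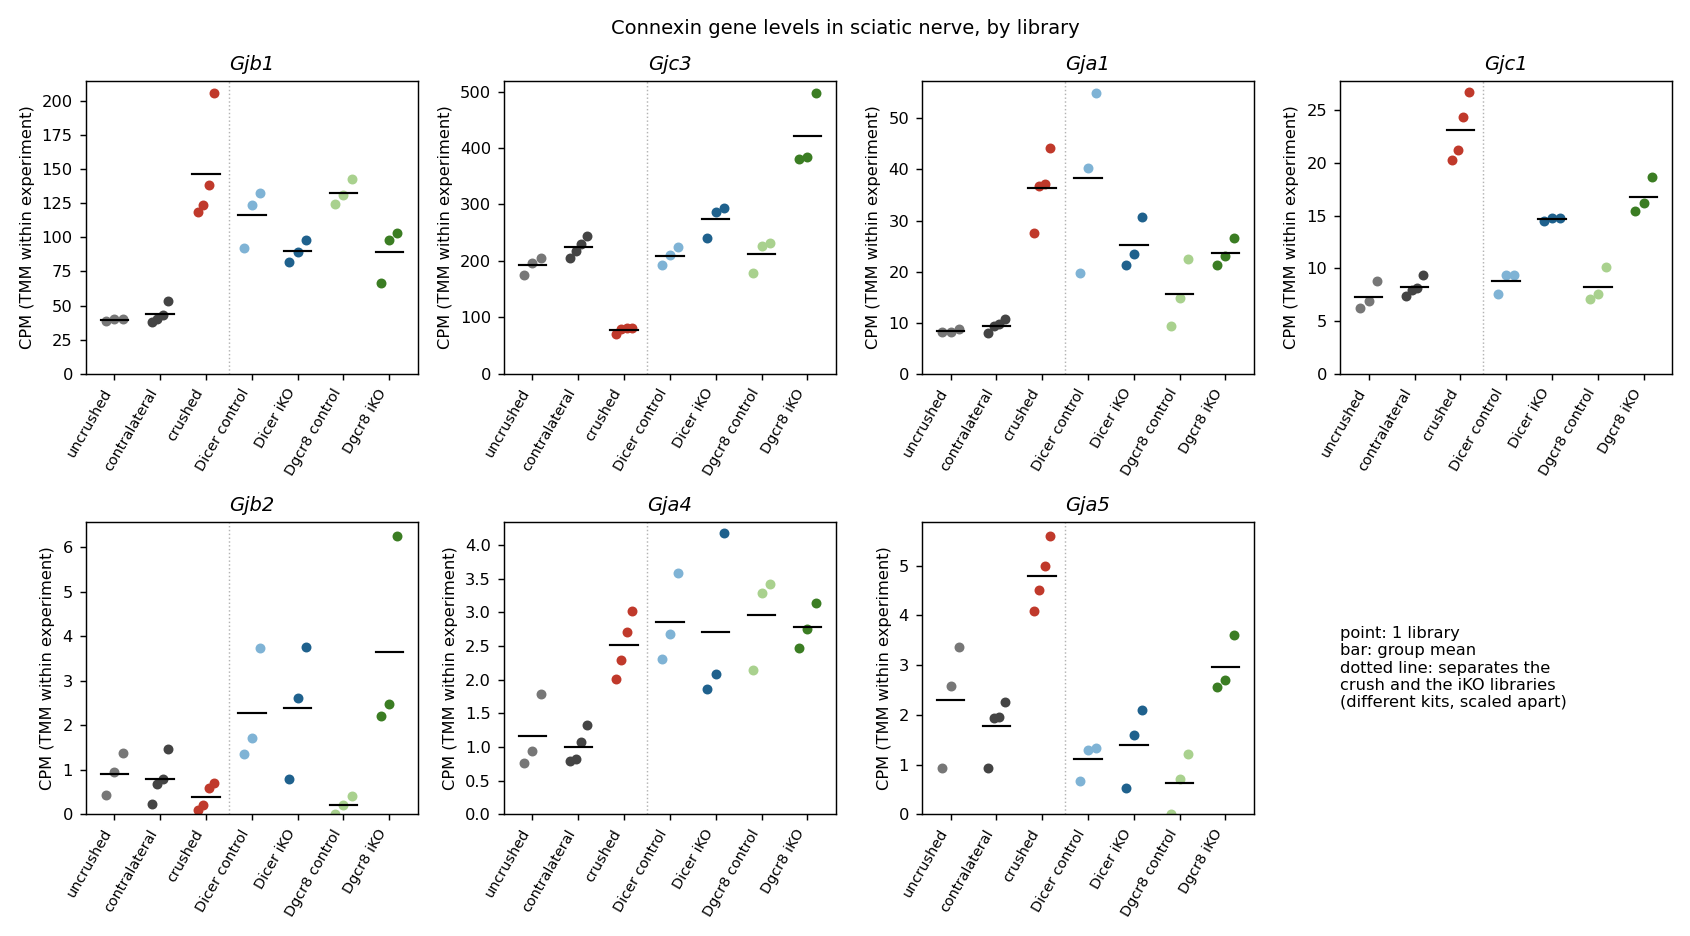
Each panel plots 1 connexin gene, with CPM scaled by TMM within each experiment on the y axis and the 7 groups on the x axis; points are libraries and bars are group means. Gjb1, Gja1, Gjc1, Gja4 and Gja5 sit higher and Gjc3 lower in all 4 crushed nerves than in the uncrushed and contralateral nerves, and the vertical scales differ between genes.

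In Dgcr8 iKO, all 7 connexins could be tested. Gjc3, Gjc1, Gjb2 and Gja5 rose, Gjb1 fell, and Gja1 and Gja4 did not pass the threshold, where 23.9% of 13252 genes rose and 20.6% fell (44.5% in either direction). Gjb2 and Gja5 reached the filter of about 10 reads through the mutant libraries, so they could be tested only because they were high there.

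Gjc3 was at 497, 380 and 385 CPM in Dgcr8 iKO and at 232, 179 and 227 CPM in Dgcr8 control. All mutant nerves were higher, the first by the widest margin. It rose 1.97-fold (log2 fold change 0.98, SE 0.17, adjusted p = 0.00068, edgeR). Gjb1 was at 103, 97.9 and 66.4 CPM in the mutants and at 143, 124 and 131 CPM in the controls, again without overlap but in the other direction, and the third mutant was lowest. It fell by 0.58 on the log2 scale (SE 0.16, adjusted p = 0.015), and the adjusted p was 0.057 without Dgcr8 control 1.

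The pair had therefore opposite signs to those after crush, where Gjb1 rose and Gjc3 fell. The myelinating SC markers fell in 3 of 4 cases in Dgcr8 iKO (median log2 fold change −1.05, lowest −1.24) and repair SC markers rose in 4 of 4 cases (median 2.80). Of the Gjb1 regulators, Egr2 fell by 0.86 (adjusted p = 0.0020, edgeR) and Nab1 by 0.59 (adjusted p = 0.019), Nab2 rose by 0.47 (adjusted p = 0.026), and Sox10 differed by −0.10 (adjusted p = 0.54). Sox10 was at 255, 262 and 222 CPM in the mutants and at 263, 259 and 269 CPM in the controls.

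Gjc1 was at 18.7, 15.5 and 16.2 CPM in Dgcr8 iKO against 10.1, 7.10 and 7.58 CPM in its controls. It rose 2.02-fold (log2 fold change 1.01, SE 0.19, adjusted p = 0.0014, edgeR), without overlap, and this is the same direction as after crush.

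Gjb2 stood out by its fold at a low level. It had 21, 66 and 19 reads in the mutants and 0, 3 and 2 reads in the controls, that is 2.47, 6.26 and 2.21 CPM against 0, 0.402 and 0.208 CPM. The control without reads allowed a level of up to 0.347 CPM (3 counts of its total). All mutants were higher, and the log2 fold change was 4.14 (SE 0.72, adjusted p = 0.00082, edgeR). This size is set by very few control reads. The Dicer controls of the same experiment had 10 to 28 reads and averaged 2.27 CPM, against 0.203 CPM in the Dgcr8 controls. Fibroblast markers rose in 4 of 5 cases beside Gjb2 in Dgcr8 iKO (14423 to 17389 CPM in sum against 6043 to 7896 CPM). Among the 3 perineurial markers, Cldn1 rose while Slc2a1 and Itgb4 fell (420 to 528 CPM in sum against 552 to 877 CPM). Macrophage markers rose in 5 of 6 cases in Dgcr8 iKO (median log2 fold change 2.90), from 168 to 203 CPM to 483 to 899 CPM in sum. The part of these cells in the connexin changes of Dgcr8 iKO was not tested.

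Gja5 had 23, 38 and 22 reads in Dgcr8 iKO and 6, 9 and 0 reads in its controls, or 2.71, 3.61 and 2.56 CPM against 0.706, 1.21 and 0 CPM, where the library at 0 allowed up to 0.304 CPM. The groups did not overlap, and the log2 fold change was 2.28 (SE 0.63, adjusted p = 0.013, edgeR). General endothelial markers fell in 3 of 6 cases and rose in 0, while arterial markers rose in 1 and fell in 2 of 4 cases, with summed levels of 233 to 265 CPM in the mutants and 290.2 to 335 CPM in the controls. Gja4 was at 2.47 to 3.14 CPM in the mutants and 2.14 to 3.43 CPM in the controls (log2 fold change −0.10, SE 0.31, adjusted p = 0.81).

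Gja1 was at 21.3, 26.7 and 23.1 CPM in Dgcr8 iKO and at 9.41, 14.9 and 22.5 CPM in Dgcr8 control, so the third control lay inside the mutant range. The log2 fold change of 0.59 (SE 0.25, adjusted p = 0.080, edgeR) missed the threshold, and it was 0.95 (adjusted p = 0.0086) without Dgcr8 control 3. Without a filter on low counts it passed (0.59, adjusted p = 0.037).

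In Dicer iKO, 6 connexins were tested, of which 2 rose and 0 fell, where 12.3% of 13045 genes rose and 8.88% fell (21.2% in either direction). Gjc1 was at 14.5, 14.8 and 14.8 CPM in the mutants and at 7.61, 9.36 and 9.37 CPM in the controls. It rose 1.67-fold (log2 fold change 0.74, SE 0.16, adjusted p = 0.017, edgeR), and the mutants were nearly alike. Gjc3 was at 241, 293 and 287 CPM in the mutants and at 192, 210 and 225 CPM in the controls, without overlap (log2 fold change 0.39, SE 0.11, adjusted p = 0.048).

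Both calls lay close to the threshold. Leaving out Dicer control 2, Dicer iKO 2 or Dicer iKO 3 cost both genes their call (adjusted p from 0.061 to 0.073 for Gjc1 and from 0.15 to 0.17 for Gjc3), and leaving out Dicer control 1 did so for Gjc3 (0.095). The fold changes moved little, from 0.33 to 0.39 for Gjc3 under these settings.

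Gjb1 was at 82.2, 89.4 and 98.4 CPM in Dicer iKO and at 92.0, 124 and 133 CPM in Dicer control. The first control lay inside the mutant range, and the log2 fold change of −0.36 (SE 0.15, adjusted p = 0.12, edgeR) missed the threshold. Without that control it was −0.51 (adjusted p = 0.019). That library also had the highest Gja1.

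Gja1 was at 21.3, 30.8 and 23.5 CPM in Dicer iKO and at 55.0, 40.3 and 19.7 CPM in Dicer control. Its log2 fold change was −0.60 (SE 0.34, adjusted p = 0.24, edgeR), and −0.92 (adjusted p = 0.015) without Dicer control 3. The Dicer controls also spread widely in the summed fibroblast markers (4575 to 14747 CPM), perineurial markers (724 to 1440 CPM) and macrophage markers (158 to 460 CPM). The part of these cells in the level of Gja1 was not tested.

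The remaining genes did not separate the Dicer groups. Gjb2 had 6, 15 and 27 reads in Dicer iKO and 12, 28 and 10 reads in Dicer control (log2 fold change 0.06, SE 0.60, adjusted p = 0.95, edgeR). Gja4 was at 1.86 to 4.18 CPM against 2.31 to 3.59 CPM (−0.06, SE 0.40, adjusted p = 0.92). Gja5, with 3 to 15 reads against 5 to 10, was not tested. In this pair of groups, the myelinating SC markers fell in 1 of 4 cases (median −0.65) and repair SC markers rose in 4 of 4 (median 1.90). The largest of these rises, 4.47 for Gdnf, was at a low mean level (log2 CPM of 0.56). Macrophage markers rose in 4 of 6 cases (median 2.36), to 719 to 970 CPM in sum, and fibroblast markers in 3 of 5 (median 1.34), to 19342 to 20640 CPM in sum, both above all 3 controls. Their part in the connexin values of Dicer iKO was not tested.

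**Figure D4:**
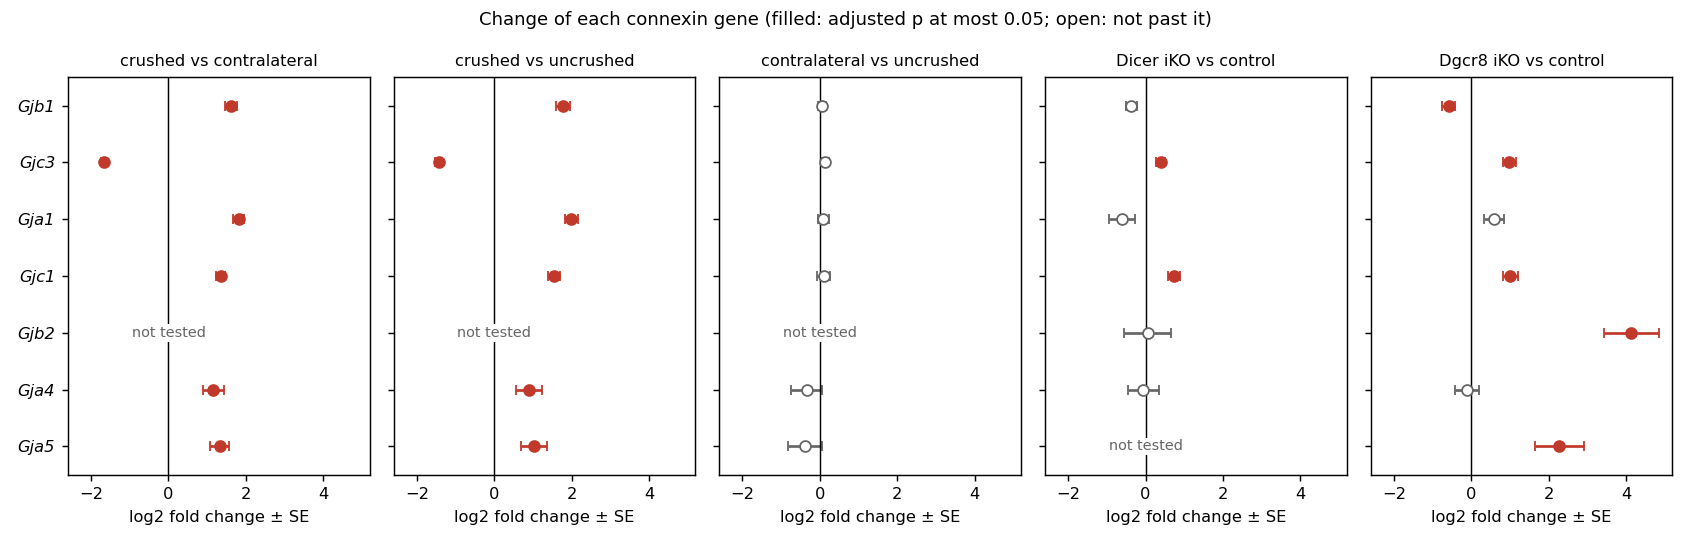
Points give the log2 fold change of each connexin gene with its standard error (x axis) in 5 comparisons, filled where the adjusted p was at most 0.05 in edgeR's quasi-likelihood test and open where it was not. Gjb1 lies at 1.61 and 1.77 after crush and at −0.58 in Dgcr8 iKO, while Gjc3 lies at −1.67 and −1.43 after crush and at 0.98 in Dgcr8 iKO.

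Whether the mutants differ in their effect was tested as an interaction over the 12 libraries of the iKO experiment. No connexin passed the threshold, where 0.0148% of 13552 genes did with edgeR and 1861 genes had an unadjusted p under 0.05. The change in Dgcr8 iKO minus that in Dicer iKO, on the log2 scale, was 4.07 for Gjb2 (SE 1.08, adjusted p = 0.17), 1.88 for Gja5 (SE 0.98, adjusted p = 0.42), 1.2 for Gja1 (SE 0.48, adjusted p = 0.30), 0.59 for Gjc3 (SE 0.20, adjusted p = 0.23) and 0.27 for Gjc1 (SE 0.24, adjusted p = 0.64). It was −0.21 for Gjb1 (SE 0.24, adjusted p = 0.73) and −0.03 for Gja4 (SE 0.50, adjusted p = 0.98). DESeq2 called Gjb2 (4.15, adjusted p = 0.022) and 235 genes in all, and Gja1 passed with edgeR without Dicer control 3 (1.51, adjusted p = 0.046). A change that passed in 1 mutant only was thus not shown by edgeR to differ between them.

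The files list transcripts, and RSEM divides reads that transcripts share, so transcript values are a description. All reads of Gjb1 were assigned to Gjb1-203, apart from fractions of a read, in each of the 23 libraries, and Gjb1-201 and Gjb1-202 were listed at 0 throughout. Gjb1-203 starts at 101383736 in GENCODE, and of the 4 RefSeq starts of Gjb1 the nearest is that of the window shown, at 101383732. For Gjc3, the coding transcript Gjc3-201 held an average of 89 to 97% of the TPM in each group and a retained intron transcript the rest. Gja5 was assigned mostly to Gja5-203 in contralateral nerves (13.2 reads on average, against 5.9 for Gja5-201) and mostly to Gja5-201 in crushed nerves (43.2 reads, against 8.6). Gja5-201 ranged from 4.27 to 7.85 reads in contralateral and from 27.7 to 53.6 reads in crushed nerves, without overlap. In Dgcr8 iKO it held 19.1 reads on average against 2.3 in the controls. In GENCODE, Gja5-201 starts at 97032416, near the RefSeq start of the Gja5 window shown (97032402), and Gja5-203 starts at 96904693. The window therefore does not lie at the start of Gja5-203. The reads of Gjc1 were spread over Gjc1-201, Gjc1-202, Gjc1-203 and Gjc1-205, some of them at 0 in single libraries.

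Other genes of the pathway were taken from lists. Of 12 other connexin genes, 1 was tested after crush. This gene, Gjb5, rose by 1.84 (adjusted p = 0.00047, edgeR), from 4 to 17 reads in contralateral to 24 to 36 reads in crushed nerves. It reached the filter through the crushed nerves, so it could be tested only because it was high there. In the mutants it was also the one tested, and it passed in neither (−0.41, adjusted p = 0.60 in Dicer iKO and −0.49, adjusted p = 0.32 in Dgcr8 iKO).

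Pannexins form channels in single membranes, and Panx1 releases ATP. Of 3 pannexin genes only Panx1 was tested, and it rose in each comparison with an injured or mutant group. It was at 15.8, 15.6, 17.4 and 14.9 CPM in crushed nerves and at 2.11, 0.70, 0.783 and 1.58 CPM in contralateral nerves (log2 fold change 3.49, adjusted p = 5.0e-09, edgeR). In that comparison Panx1 reached the filter through the crushed nerves, so it could be tested there only because it was high in them. In Dgcr8 iKO it was at 18.9, 20.1 and 19.2 CPM against 2.71, 1.88 and 2.49 CPM (3.02, adjusted p = 2.4e-06), and in Dicer iKO at 8.88, 13.4 and 13.9 CPM against 2.58, 2.67 and 2.44 CPM (2.23, adjusted p = 0.0027).

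Among 6 genes for scaffolds and trafficking of connexins, 2 rose and 2 fell against contralateral nerves, where 66.4% of all genes tested changed. Dlg1 and Nedd4, a scaffold and a ubiquitin ligase, rose by 0.92 and 0.87, while Cav1 and Tjp1 fell by 1.07 and 0.70. The tight junction scaffold gene Tjp1 and the caveolar gene Cav1 were also lower in Dicer iKO (−0.82 and −0.78) and in Dgcr8 iKO (−0.63 and −0.92), all past the threshold in edgeR's quasi-likelihood test. Nedd4 and Smurf2, another ubiquitin ligase, rose in Dgcr8 iKO by 0.55 and 0.36. Cnst did not pass in these comparisons.

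**Figure D5:**
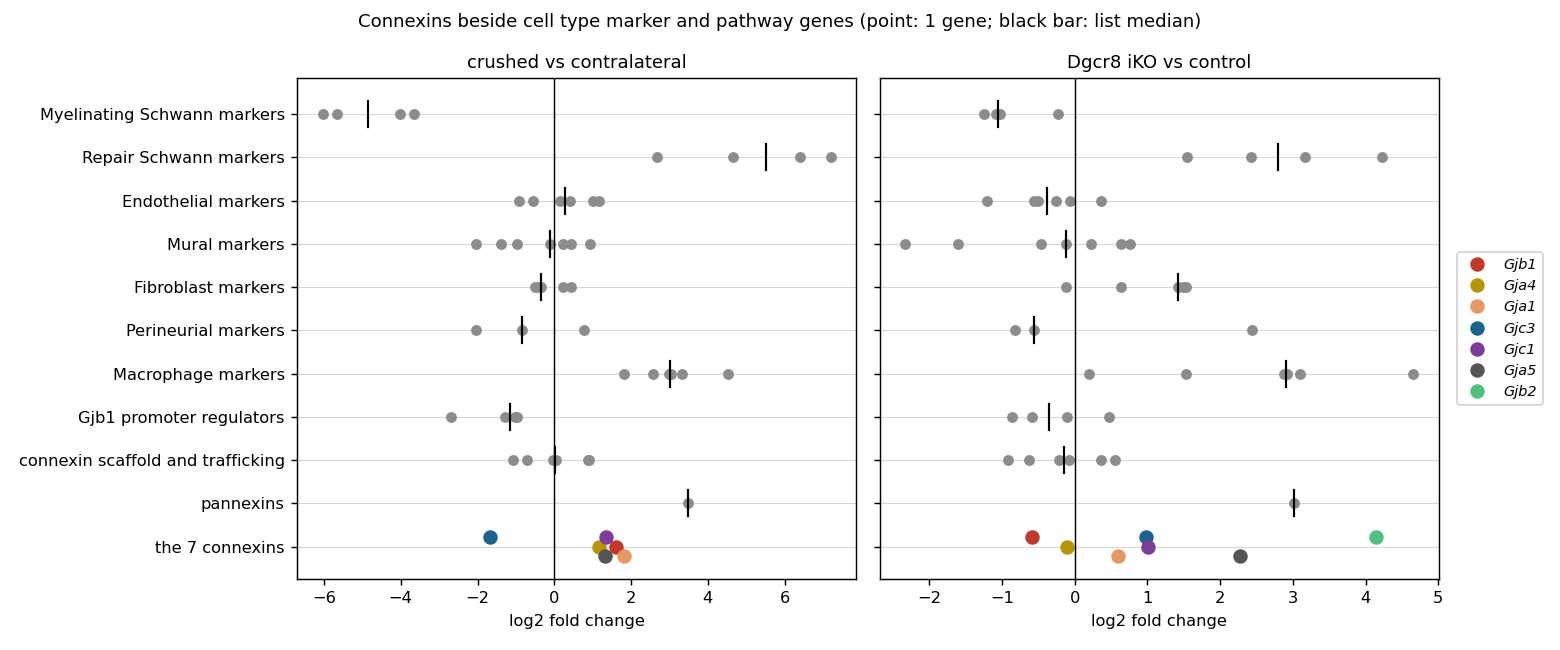
Grey points are genes of cell type marker or pathway lists, black bars are list medians, and coloured points are the connexins, placed by their log2 fold change (x axis) in crushed against contralateral nerves (left) and in Dgcr8 iKO against its controls (right). Gjb1 (1.61) and Gjc3 (−1.67) lie on opposite sides of 0 on the left and have changed sides on the right (−0.58 and 0.98), while the medians of the myelinating SC markers are −4.84 and −1.05.

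The genes most like each connexin were found by the root mean square difference of log2 CPM over the 23 libraries, after centring each gene within each experiment, among the 11929 genes whose mean log2 CPM reached 1 in both. For Gjb1 they were Anxa7 (0.21), Nsun2 (0.23) and the predicted gene Gm45837 (0.22). For Gjc3 they were Egfl8 (0.20), Lamb1 (0.20) and Gpam (0.22), for Gja1 they were Mustn1 (0.29), C1qtnf1 (0.29) and Pkp4 (0.30), and for Gjc1 they were Ostm1 (0.16), Chd7 (0.17) and Plekha1 (0.17). Gjb2, Gja4 and Gja5 were below the level minimum.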

How the data were processed

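RNA of 23 whole sciatic nerves was measured. The authors used Trimmomatic for trimming, STAR for alignment to GRCm38, and RSEM to quantify Ensembl transcripts. Per the labels, the kits were stranded (SMARTer pico-input for crush, TruSeq with Ribo-Zero for iKO), while the methods name TruSeq only. The deposited values used for tests are RSEM's expected counts per transcript, not normalized, which were summed per gene and rounded. The deposited TPM values, which the authors' RSEM run scaled to transcript length and library size, were summed per gene and used without a test. FPKM values were not used.

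Groups and replicate numbers come from the labels. One uncrushed library is replicate 3 by title and 4 by description, and the title was followed. The methods describe taking both nerves of an operated mouse, but no source used here says that equal numbers mark the same animal, and the tests treat libraries as independent. Between same-numbered libraries, deviations from the group means correlated at −0.17 to 0.18, in no comparison above 0.1 for every pair. No pair of replicates agreed within sampling noise (chi-square per degree of freedom of at least 4.36).

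Tests used edgeR 4.0.16 in R 4.3.3. Each comparison took its own groups, genes kept by filterByExpr (minimum count 10), TMM, the quasi-likelihood test and Benjamini-Hochberg adjustment over all genes tested, with a threshold of 0.05. SEs were derived from the log2 fold change and the F statistic. The study's 2-fold limit was not required for a call. The interaction used all 12 iKO libraries. The prior count for log2 CPM was 2. The test was checked on simulated data with 200 changed genes. These were drawn at mean levels above those of Gjb2, Gja4 and Gja5, with the same dispersion for all genes. The check therefore does not cover these low-count connexins. Alternatives were RLE normalization, DESeq2 1.42.0, no filter, the replicate number as a block, all groups in one fit, protein-coding genes only, each library left out in turn, and CPM in place of TPM.

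The 7 connexins, the marker and pathway lists, the motifs and the microRNAs were chosen with earlier results of these data known. The genes named are the 7 connexins, genes of those lists that passed the threshold or that a result asks for, the targeted genes, and the 3 genes nearest to each connexin. Some genes of the lists are not reported here and entered no list count or sum.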

Additional observations from a re-analysis of the deposited data

Results flagged for a closer look

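Among 14 groups of 4 libraries (7 connexins in crushed and in contralateral nerves), 1 had a library that stood apart by Dixon's test. This was Gjc3 in crushed nerves, where the fourth library (70.0 CPM) lay below the others (79.8 to 80.4 CPM), with a gap of 0.943 of the group's range, above the test's limit for 4 libraries. Chance alone gives about 1 such group in 20. All 4 values were far below those of contralateral nerves (205 to 244 CPM).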

How the results depend on the processing

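No alternative turned the direction of a called connexin. After crush, the number of connexins changed was 6 under each alternative against contralateral nerves, and 5 to 6 against uncrushed nerves when single libraries were left out, with 5 under DESeq2 and under the replicate block. The other counts ranged, on leaving out single libraries, from 4 to 6 in Dgcr8 iKO, from 0 to 3 in Dicer iKO, from 0 to 1 for the interaction, and stayed 0 between the control nerves. The count in Dicer iKO, 2 as reported, was 1 with RLE, 1 without a filter, 1 with all groups in one fit and 0 with the replicate block. For the interaction it was 1 with DESeq2, which called 235 genes in all against 2 with edgeR. The cause of these shifts was not tested. Gjb1 exceeded Gjc3 in 10 of 23 libraries per length (TPM) and in 4 by CPM, which does not correct for the longer Gjc3 transcript.

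No source used here says that equal replicate numbers mark one mouse, and same-numbered libraries did not deviate together in every pair of any comparison. With the replicate block, Gjc1 (0.75, adjusted p = 0.067, edgeR) and Gjc3 (0.39, adjusted p = 0.091) in Dicer iKO and Gja5 against uncrushed nerves (1.07, adjusted p = 0.056) missed the threshold, and Gja1 in Dgcr8 iKO passed it (0.66, adjusted p = 0.046), while no other connexin call changed. Over all genes, the number called in Dicer iKO was 2764 without and 929 with the block. Between the control nerves it was 0 with edgeR as reported, 15 with the block, 250 with DESeq2 and 656 without a filter, and for the interaction 20 without a filter. Without a filter, the median of all genes moved by 0.16 and 0.23 (log2) in the comparisons of crushed with contralateral and uncrushed nerves. In the latter it moved by −0.11 with protein-coding genes only and by −0.10 with all groups in one fit. Each of these is smaller than any connexin change there. Genes under about 10 reads, such as Gjb2 after crush, were left out by the filter, and few reads limit the precision of their fold changes.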
